A study of Mus musculus with 12 samples.

Results

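Cytosolic ribosomal proteins are the proteins that assemble with ribosomal RNA into the small and large subunits of the ribosome, the machine that translates mRNA in the cytoplasm. Their mRNAs are short and abundant in most cells. In the male germline, genes on the X chromosome are silenced during meiosis, and X-linked genes that every cell needs often have an intronless or duplicated autosomal relative that is active in germ cells. Rpl10l, Rpl39l and Rps4l are such relatives of the X-linked genes Rpl10, Rpl39 and Rps4x. Spermatids follow meiosis and stop transcription as they elongate, so that later translation relies on stored mRNA.

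The members described here are the contigs of the deposited count table, each 1 reference transcript, whose deposited gene symbol begins with Rpl or Rps followed by a digit, or is Rplp0, Rplp1, Rplp2 or Rpsa, without the Rps6k kinases. The rule found 183 contigs with 95 symbols among 12114 contigs in all. Of the 95 symbols, 76 were parent genes of ribosomal proteins, 8 were paralogs or retrogenes, 10 were pseudogene copies, and Rps19bp1 was a gene whose product binds a ribosomal protein and is not one itself. By annotation 148 contigs were protein-coding, 17 retained an intron, 6 were marked for nonsense-mediated decay, 6 were processed transcripts, 5 were processed pseudogenes and 1 was a transcribed processed pseudogene. The test was run on 11831 contigs with enough reads, 178 of them members. Of these 178, 149 had enough reads in both stages, 12 in ES only and 17 in RS only, and a contig of the last 2 kinds was tested only because of the stage in which it was read.

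RNA was read by nanopore direct RNA sequencing, in which each read stands for 1 native poly(A) RNA molecule, in spermatids of adult male mice, either round (RS) or elongated (ES). The males were Tent5c wt/wt, with normal TENT5C, or Tent5c dcat/dcat, which carry a catalytically dead form of this poly(A) polymerase, an allele listed in the study's methods on a C57BL/6 background. Each of the 4 groups held 3 libraries, and each library pooled RNA from 3 mice, so the spread between libraries is a spread between pools. Interstitial cells were discarded with the supernatant of a collagenase digestion, and both stages were sorted from a haploid gate on DNA content and light scatter, without a lineage marker.

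The libraries held 337287 to 1359427 counts. The spermatid marker list was high in all 12 libraries, at a summed 19700 to 42120 CPM (counts scaled to a fixed library size, after TMM factors that correct for library composition) in RS and 210400 to 280100 CPM in ES. Markers of other cells also moved with stage: the 6 Leydig cell genes found of 11 looked for summed to 14.96 to 45.54 CPM in RS and 255.0 to 1015 CPM in ES, and the 7 Sertoli cell genes found of 13 summed to 19.23 to 57.68 CPM in RS and 243.7 to 499.3 CPM in ES. The 2 macrophage genes found of 8 stood at 4.154 to 10.64 CPM in RS and 92.74 to 169.8 CPM in ES. The Leydig genes found were Insl3, Cyp11a1, Cyp17a1, Ptgds, Aldh1a1 and Fabp3. Those found for Sertoli cells were Amhr2, Clu, Ctsl, Dhh, Aard, Tsx and Defb36. Star, Hsd3b1 and Lhcgr of the Leydig list and Sox9, Amh and Wt1 of the Sertoli list were among the genes not found. All 4 hemoglobin genes of the blood list were absent too. All 7 Leydig contigs and 7 of 8 Sertoli contigs were called higher in ES in each genotype, with Leydig medians of 4.19 and 4.62 on the log2 scale in wt/wt and dcat/dcat. In RNA pooled over cells, a change in the number of molecules per cell and a change in the number of cells of a kind cannot be told apart.

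The 4 libraries numbered 1 stood apart from the other 8 for a few members. Of the 178 tested members, 7 had a level in these 4 libraries under 0.2 of the level in the others, or 3.93%, against 125 of all 11831 contigs, or 1.06%. A retained-intron contig of Rpl7 had 0 to 1 reads in each library numbered 1 and up to 34 reads elsewhere. The pseudogene Rpl3-ps1 had 0 reads in all 4 and up to 27 elsewhere. The other 5 were contigs of Rps3a3, Rpl9, Rps6-ps4, Rps2-ps10 and Rpl7a. What the shared number stands for is not given in the labels.

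**Figure D1:**
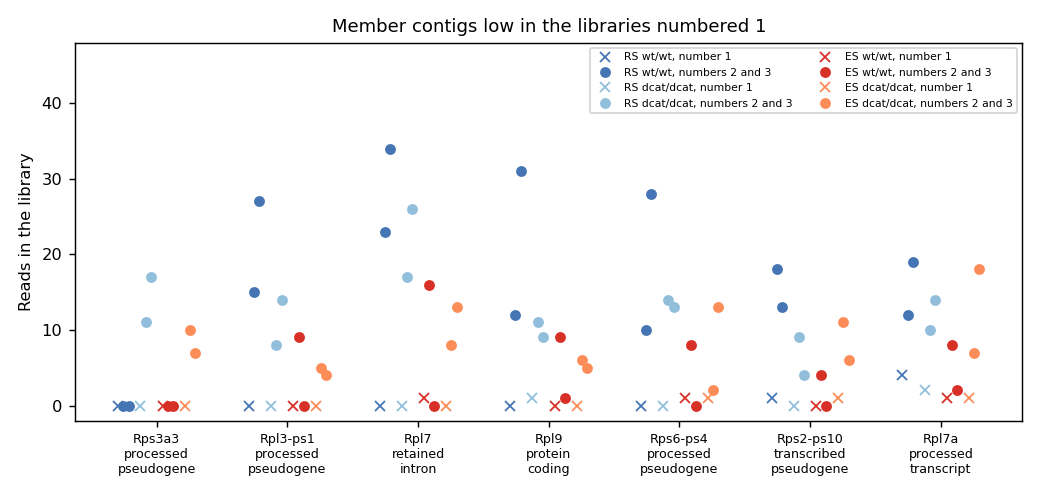
Reads per library for the 7 member contigs whose level in the 4 libraries numbered 1 (crosses) was under 0.2 of that in the other 8 libraries (points), coloured by group. The crosses lie at 0 to 4 reads, while other libraries reach 17 to 34 reads, depending on the contig.

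The X-linked parents and their autosomal relatives are similar in sequence, which matters for how reads can be assigned. For each pair the window of 30 aligned bases with the most differences is shown, so the windows are less alike than the pair as a whole. The coding sequences of Rpl10l and Rpl10 were 84.7% identical, those of Rpl39l and Rpl39 were 85.0% identical, and the transcript of Rps4l was 79.9% identical to the coding sequence of Rps4x where the alignment covered both. Capitals mark the bases at which the members of a pair differ, and each window is read 5′ to 3′ on the transcript strand, from GENCODE vM21 transcripts, with positions on GRCm38.
Rpl10: aaAgcAaaAgtTgatgaAttCccactTtgT
Rpl10l: aaGgcGaaGgtGgatgaGttTccactCtgC
Rpl39: cTaagAgAagacaCtggagGAgaacGaaGC
Rpl39l: cCaagCgGagacaTtggagACgaacCaaAT
Rps4x: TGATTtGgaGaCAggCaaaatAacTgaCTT
Rps4l: CTCGCtAgaCaGCggAaaaatCacCgaTGC

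The Rpl10 window lies at chrX:74271835-74271864 on the plus strand and the Rpl10l window at chr12:66284211-66284240 on the minus strand, both in the coding sequence from base 118 to base 147, with 8 differences. The Rpl39 window is at chrX:37082712-37082741 on the minus strand and the Rpl39l window at chr16:10174425-10174454 on the plus strand, coding bases 116 to 145, with 9 differences. The Rps4x window is at chrX:102186413-102186442 on the minus strand, coding bases 486 to 515, and differs at 15 bases from Rps4l at chr6:148355195-148355224 on the plus strand. The pseudogene copies were closer to their parents, at 98.9% to 100% identical bases over the aligned part of the transcripts. Rpl10l, with 1 exon and 1023 bases on chromosome 12, has no introns, while Rpl10 has 7 exons and 799 bases.

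The X-linked parents were nearly unread in RS and present in ES. Rpl10, a large subunit protein near the peptidyl transferase centre, had 0, 1 and 6 reads in the wt/wt RS libraries and 1, 0 and 4 in dcat/dcat RS, against 17, 14 and 14 in wt/wt ES and 7, 7 and 13 in dcat/dcat ES. Every ES library lay above every RS library. The read total went from 7 to 45 in wt/wt, a ratio of 18.7 after scaling (95% exact interval 8.38 to 49.2), and from 5 to 27 in dcat/dcat, a ratio of 11.0 (4.19 to 36.7). These intervals cover counting error only, and reads assigned to the copy Rpl10-ps3, described below, are not counted in them. Rpl10 passed the filter on low counts only through ES, so its fitted changes, 4.20 log2 units in wt/wt (SE 0.63) and 3.36 in dcat/dcat (SE 0.71), are a description with no test.

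Rpl39, a very small protein of the exit tunnel of the large subunit, had 1, 1 and 4 reads in wt/wt RS and 0, 2 and 5 in dcat/dcat RS, and 16, 22 and 14 reads in wt/wt ES and 8, 32 and 33 in dcat/dcat ES. The stages did not overlap in either genotype, although ES dcat/dcat replicate 1 was low for its group. Summed over libraries, 6 and 52 reads gave a ratio of ES to RS of 25.2 in wt/wt (10.8 to 71.9), and 7 and 73 reads one of 21.3 in dcat/dcat (9.84 to 54.9). Rpl39 too was tested only through its ES reads, and its fitted changes of 4.56 and 4.34 log2 units are given as a description.

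Rps4x, a small subunit protein, had 1, 3 and 4 reads in wt/wt RS and 1, 1 and 0 in dcat/dcat RS. In ES the wt/wt libraries had 16, 24 and 9 reads and the dcat/dcat libraries 12, 17 and 26, all above the RS libraries. The ratio of ES to RS was 17.8 (8.38 to 43.6) in wt/wt, and in dcat/dcat, where RS held only 2 reads, it was 56.2 with an interval of 14.9 to 476. The fitted changes were 4.03 (SE 0.48) and 5.49 (SE 0.58), again for a contig that passed the filter only through ES. Rpl36a, another X-linked gene, was not among the contigs, so its autosomal relative Rpl36al was described alone.

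Other X-linked contigs moved in both directions. Of the 218 that were tested, 94 were called higher in ES in wt/wt (43.1%) and 27 lower (12.4%), against 23.8% and 16.5% of all contigs. Their median was 0.07 and their highest value 3.95. In dcat/dcat 91 were higher (41.7%) and 24 lower (11.0%), against 24.0% and 16.9% of all contigs, with a median of 0.23 and a highest value of 4.29. The Leydig contigs had fitted changes of 3.68 to 5.50 in wt/wt, and the part of Leydig cells in the levels of the 3 parents was not tested.

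**Figure D2:**
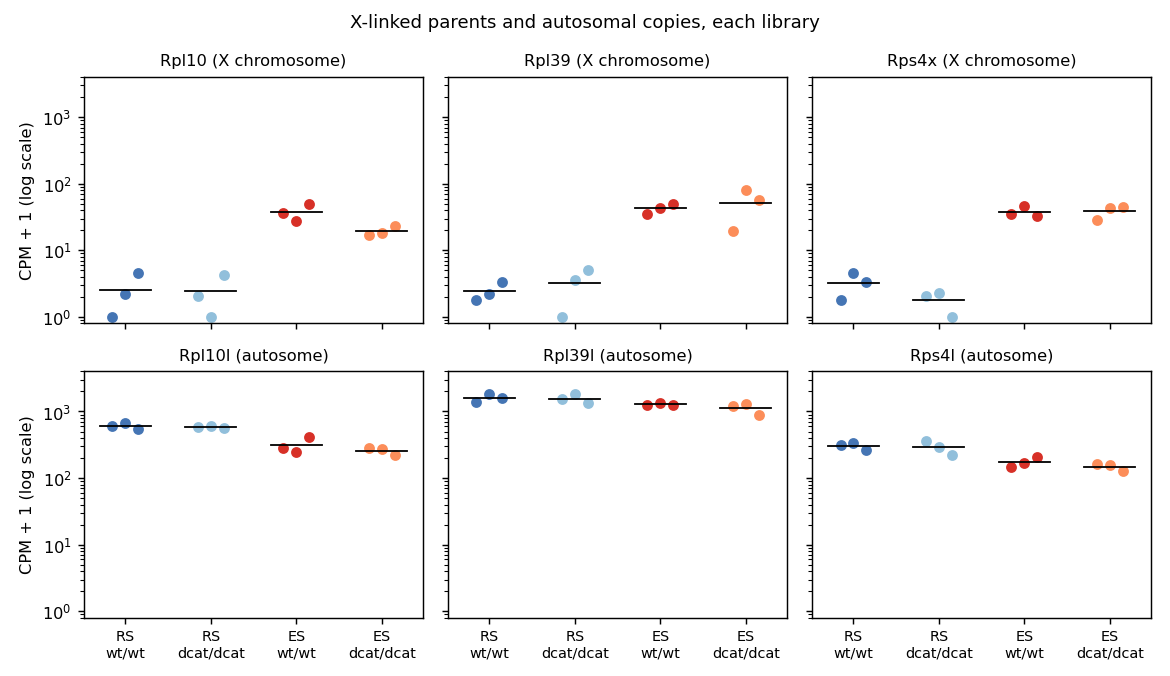
TMM-scaled CPM + 1 on a log axis for the 3 X-linked parents (upper row) and their autosomal relatives (lower row), 1 point per library with the group mean as a line. The parents lie at 0 to 4.12 CPM in RS and at 16.2 to 79.9 CPM in ES, while the relatives lie lower in ES than in RS on average.

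The autosomal relatives did not rise. Rpl10l had 733, 561 and 935 reads in wt/wt RS and 555, 468 and 680 in dcat/dcat RS, and 132, 128 and 117 in wt/wt ES and 121, 110 and 130 in dcat/dcat ES. On the CPM scale this was 610 ± 57.8 in wt/wt RS and 312 ± 89.5 in wt/wt ES (SD, n = 3), with no overlap between stages. In the model over all contigs (edgeR's quasi-likelihood test with Benjamini-Hochberg adjustment, used for every q below), Rpl10l fell by 0.98 log2 units in wt/wt (SE 0.19, q = 0.00096), with 1.19 for dcat/dcat (SE 0.19, q = 0.000216).

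Rpl39l, the second most read member contig, was at 1611 ± 200.4 CPM in wt/wt RS and 1279 ± 56.8 CPM in wt/wt ES, and at 1558 ± 235.9 and 1129 ± 228.7 CPM in dcat/dcat. The stages did not overlap in either genotype, yet the difference of -0.33 in wt/wt did not pass (SE 0.17, q = 0.134), and the fall of 0.47 in dcat/dcat passed narrowly (SE 0.17, q = 0.0415). The dcat/dcat call was lost with DESeq2's test (q = 0.0592) and without RS dcat/dcat replicate 1, RS dcat/dcat replicate 2 or ES dcat/dcat replicate 3 (q = 0.0743, 0.161 and 0.238). With libraries scaled by total counts only, Rpl39l was called lower in wt/wt as well (-1.04, q = 9.31e-05).

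Rps4l has no deposited symbol and is therefore no member, but it was set as the relative of Rps4x. It had 380, 286 and 445 reads in wt/wt RS and 334, 224 and 266 in dcat/dcat RS, and 68, 87 and 59 in wt/wt ES and 69, 62 and 76 in dcat/dcat ES. It fell by 0.84 in wt/wt (SE 0.21, q = 0.00613), with 0.97 for dcat/dcat (SE 0.22, q = 0.00225). The wt/wt call was lost without ES wt/wt replicate 1 (q = 0.0636). The 8 spermatocyte genes found of 10 looked for were also lower in ES, at a summed 346.5 to 487.3 CPM against 608.1 to 801.2 CPM in RS, with 4 of 14 contigs called lower and 0 higher in wt/wt and 3 lower and 1 higher in dcat/dcat, and their part in the fall of the relatives was not tested.

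The ratio of relative to parent within a library does not depend on how libraries are scaled. It was taken as the log2 of reads with a pseudocount of 0.5, not divided by length, and compared between stages by an exact two-sided permutation test with labels permuted within genotype (400 arrangements, smallest possible p 0.005), adjusted over the 7 pairs that could be tested. For the 3 pairs with an X-linked parent the ratios are given with no test, since those parents entered only through ES and their RS ratios rest on few reads and on the pseudocount. Their p-values were still counted among the 7 in the adjustment, so each q printed for the other pairs depends on them. The Rpl10l/Rpl10 ratio was 7.17 to 10.5 in the 6 RS libraries and 2.92 to 4.02 in the 6 ES libraries. Summed over the 6 libraries, this was 3932 against 12 reads in RS, or 328 reads of Rpl10l per read of Rpl10 (95% exact interval 187 to 635), and 738 against 72 in ES, or 10.2 (8.04 to 13.2). Rpl10-ps3, which matches Rpl10 without a difference over 740 aligned bases, held 2 wt/wt and 6 dcat/dcat reads in RS. In ES it held 25 and 30. These reads were not counted as Rpl10, and the intervals do not cover how reads were assigned between Rpl10 and Rpl10-ps3. The Rpl39l/Rpl39 ratio was 8.20 to 11.5 in RS and 3.94 to 5.95 in ES, and the summed reads were 10379 against 13 in RS and 3211 against 125 in ES. The Rps4l/Rps4x ratio was 6.36 to 9.06 in RS and 1.53 to 2.65 in ES, with summed reads of 1935 against 10 and 421 against 104. The stages did not overlap in any of the 3 ratios. All 3 ratios stayed above 0 in every ES library, so that more reads were assigned to the relative than to the X-linked parent at both stages.

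A like shift, on a smaller scale, was measured for a pair of autosomal genes. Rpl22 and Rpl22l1 encode paralogous large subunit proteins whose coding sequences were 66.9% identical. The main Rpl22l1 contig was at 225 ± 19.5 CPM in wt/wt RS and 127 ± 23.6 CPM in wt/wt ES, and fell by 0.81 in wt/wt (SE 0.19, q = 0.0033), with 0.65 for dcat/dcat (SE 0.19, q = 0.0123). The dcat/dcat call missed the threshold without RS dcat/dcat replicate 2, ES dcat/dcat replicate 2 or ES dcat/dcat replicate 3 (q = 0.0515, 0.0523 and 0.0509). Rpl22 itself was at 30.4 ± 5.85 CPM in wt/wt RS and 67.1 ± 26.0 CPM in wt/wt ES, and rose by 1.18 (SE 0.32, q = 0.00932) and by 1.56 in dcat/dcat (SE 0.33, q = 0.00171). The wt/wt call of Rpl22 was lost without ES wt/wt replicate 2 (0.88, q = 0.0736) and with total counts only (0.46, q = 0.214). The Rpl22l1/Rpl22 ratio of these main contigs was 2.67 to 3.49 in RS and 0.49 to 1.12 in ES, a difference of -2.08 (exact permutation p = 0.005, q = 0.007). The ratio leaves out the other contigs of both genes. The main contig held 35.04% of the reads of Rpl22, the lowest share among genes with more than 1 contig, and 65.45% for Rpl22l1.

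Among the other pairs, Rps27l/Rps27 differed by -0.83 (exact permutation p = 0.005, q = 0.007), with RS libraries at -0.77 to -0.41 and ES libraries at -1.85 to -1.18. Neither contig passed alone, at -0.47 in wt/wt for Rps27l (q = 0.129) and 0.31 for Rps27 (q = 0.249). With the replicate number as a block, Rps27l was called lower in both genotypes (-0.47, q = 0.0414, and -0.56, q = 0.0173), as it was with total counts only (-1.19 and -1.26), where Rps27 stood at -0.39 and -0.35 and was not called. Rpl7l1/Rpl7 differed by -0.06 (exact permutation p = 0.82, q = 0.82), and the stages overlapped. Rps27rt/Rps27 differed by 0.18 (exact permutation p = 0.215, q = 0.251), but these coding sequences were identical, so the split of reads between them is uncertain. Rpl36al stood at -0.30 in wt/wt (q = 0.166) and -0.42 in dcat/dcat (q = 0.0541), the latter called with the replicate block (q = 0.0255). Rpl3, whose relative Rpl3l was not among the contigs, stood at -0.38 (q = 0.239) and -0.16 (q = 0.632). With total counts only both were called lower in each genotype, Rpl36al at -1.02 and -1.10 and Rpl3 at -1.10 and -0.84.

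Over all members, more contigs were called higher in ES than lower. In wt/wt 68 of 178 members were called higher (38.2%) and 6 lower (3.37%), against 23.8% and 16.5% of all contigs. In dcat/dcat 72 were higher (40.4%) and 5 lower (2.81%), against 24.0% and 16.9%. The median log2 change of the members was 0.51 in wt/wt and 0.54 in dcat/dcat, beside -0.24 and -0.18 over all contigs. Among the 149 members with enough reads in both stages 63 were higher (42.3%) and 5 lower (3.36%) in wt/wt, against 32.3% and 20.2% of the 6357 contigs of that kind, and 62 and 5 in dcat/dcat, against 32.2% and 20.6%. With each gene's contigs summed, 52 of 94 genes were higher and 3 lower in wt/wt, and 55 were higher and 2 lower in dcat/dcat. The medians were then 0.53 and 0.57 for member genes, beside -0.22 and -0.18 over all genes. The share of all genes called in that fit is not given here, so these counts are a description.

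The direction of these counts depended on the scaling, and their size also on the filter. When libraries were scaled by total counts alone, 11 members were higher and 46 lower in wt/wt, and 16 higher and 41 lower in dcat/dcat, with member medians of -0.19 and -0.13 beside all-contig medians of -0.96 and -0.85. Under that scaling 16.5% of all contigs were higher and 45.7% lower in wt/wt, with 16.6% higher and 42.2% lower in dcat/dcat, so that both member shares lay below those of all contigs. With at least 10 reads required in every library, 21 of 111 members were higher and 18 lower in wt/wt, against 33.4% and 36.2% of 3719 contigs, and 29 higher and 15 lower in dcat/dcat, against 33.5% and 35.4%. The member medians were then 0.19 and 0.17, beside -0.07 and -0.05. With the replicate number as a block, 94 members were higher and 11 lower in wt/wt, against 27.2% and 24.4% of all contigs, and 93 higher and 8 lower in dcat/dcat, against 28.0% and 23.9%. The member median lay above the all-contig median in each of these fits, while the counts of higher and lower members changed. The count for wt/wt also fell to 41 higher without RS wt/wt replicate 1 and without ES wt/wt replicate 2, and that for dcat/dcat to 47 without RS dcat/dcat replicate 1. Without all 4 libraries numbered 1, 75 were higher and 7 lower in wt/wt and 82 higher and 5 lower in dcat/dcat.

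The share of all counts on members showed the same dependence. It was 4.78%, 5.80% and 5.23% in wt/wt RS and 4.87%, 5.86% and 4.90% in dcat/dcat RS, against 4.06%, 4.67% and 4.39% in wt/wt ES and 4.26%, 4.71% and 4.48% in dcat/dcat ES. Every ES library was below every RS library, with means of 5.27% ± 0.51 and 4.37% ± 0.30 in wt/wt (SD, n = 3). The 10 most abundant contigs, none of them a member, took 5.40% to 7.97% of counts in RS and 19.0% to 22.4% in ES. Outside them the member share was 5.67% ± 0.60 in wt/wt RS and 5.51% ± 0.46 in wt/wt ES, and 5.61% ± 0.63 and 5.62% ± 0.30 in dcat/dcat, so the stages then overlapped.

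**Figure D3:**
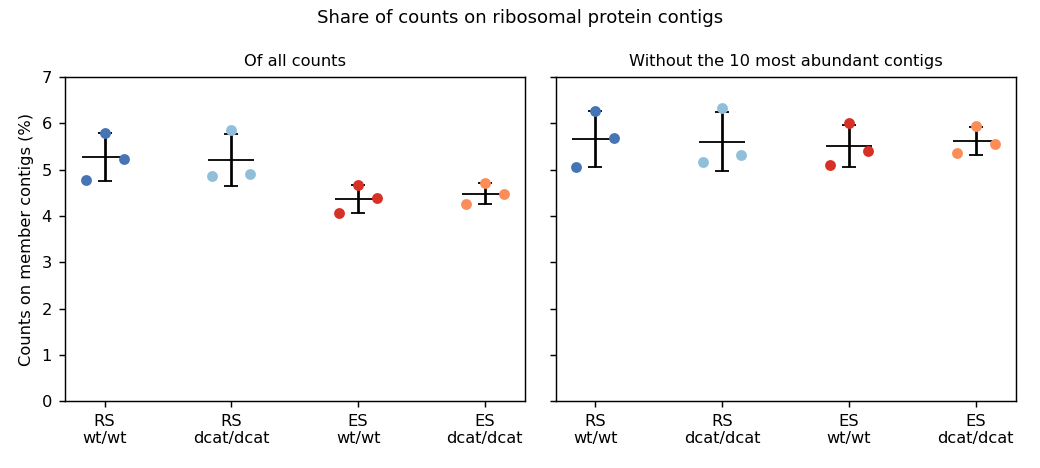
Percent of counts on the 183 member contigs in each library, of all counts (left) and with each library's 10 most abundant contigs left out (right); bars give the group mean ± SD. On the left the ES libraries lie at 4.06% to 4.71% and the RS libraries at 4.78% to 5.86%, and on the right the groups overlap.

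Small and large subunit contigs had close medians. Of 61 small subunit contigs 24 were higher (39.3%) and 1 lower (1.64%) in wt/wt, with a median of 0.58. Of 84 large subunit contigs 34 were higher (40.5%) and 1 lower (1.19%), with a median of 0.53. Over all contigs 23.8% were higher and 16.5% lower in wt/wt. In dcat/dcat the counts were 26 and 0 for the small subunit and 36 and 1 for the large subunit, beside 24.0% higher and 16.9% lower over all contigs. Of the 5 contigs of the stalk, the part of the large subunit that recruits elongation factors, 3 were higher in both genotypes. They were the main contigs of Rplp0, Rplp1 and Rplp2. The other Rplp2 contigs had enough reads only in dcat/dcat ES, so their higher levels there are a description with no test. The main contig of Rplp0, the stalk base, was at 1038 ± 65.7 CPM in wt/wt RS and 1575 ± 120.8 CPM in wt/wt ES, and rose by 0.60 (SE 0.13, q = 0.00213). Rplp1 and Rplp2, which pair on that base, rose by 0.81 (q = 0.000582) and 0.53 (q = 0.00842). Rpsa, a small subunit protein, rose by 0.65 (SE 0.20, q = 0.0189), a call lost without RS wt/wt replicate 2 or 3 or ES wt/wt replicate 1 (q = 0.063 to 0.077). With total counts only, Rplp0, Rplp2 and Rpsa stood at -0.11, -0.18 and -0.07 in wt/wt and Rplp1 at 0.10, none of them called.

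**Figure D4:**
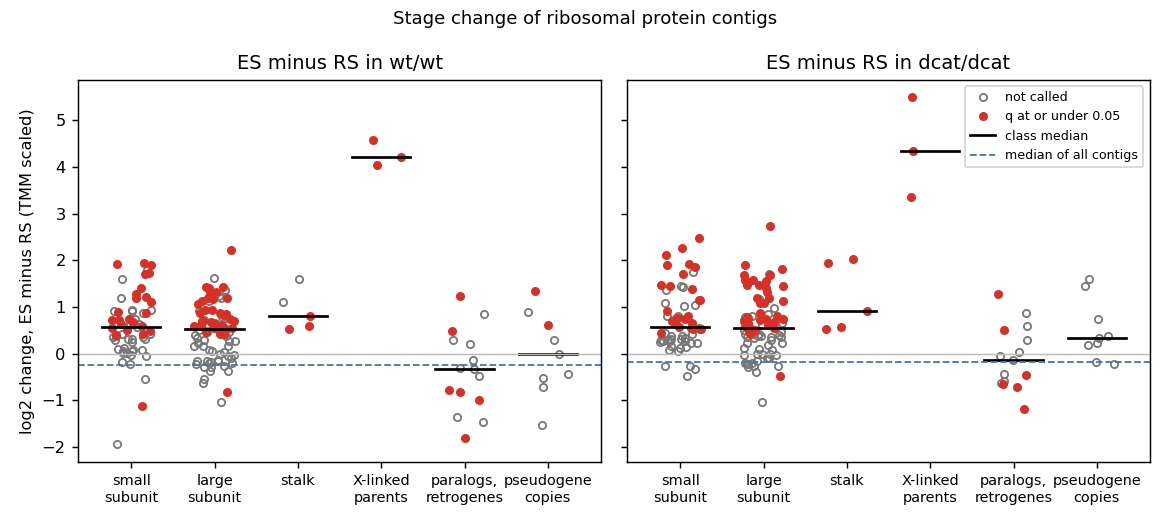
log2 change from RS to ES of each tested member contig on the TMM scale, by class, in wt/wt (left) and dcat/dcat (right); filled points passed q at or under 0.05, black lines are class medians, and the dashed line is the median of all contigs. The X-linked parents, tested only through ES, lie at 3.36 to 5.49, small and large subunit medians at 0.53 to 0.58, and the median of paralogs and retrogenes at -0.33 in wt/wt and -0.14 in dcat/dcat.

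The members with the smallest q among those that rose included 2 of the most read contigs. Rps20, a small subunit protein, was at 935, 1248 and 1161 CPM in wt/wt RS and 1017, 1314 and 1139 CPM in dcat/dcat RS, against 2620, 2916 and 2055 CPM in wt/wt ES and 2451, 2724 and 2555 CPM in dcat/dcat ES. It rose by 1.18 (SE 0.16, q = 5.63e-05) and by 1.16 (SE 0.16, q = 7.23e-05). The main contig of Rpl41, which encodes an extremely short protein, was at 1074 ± 165.9 CPM in wt/wt RS and 2241 ± 58.7 CPM in wt/wt ES, and rose by 1.06 in wt/wt (q = 4.28e-05) and 1.09 in dcat/dcat (q = 3.81e-05). A second Rpl41 contig rose by 1.42 and 1.33. Rpl27a rose by 1.16 and 1.20, and a contig of Rps24 other than its main one by 1.21 and 1.14, each with a q of at most 0.000135. Rps29, also among the 5 most read, rose by 0.54 and 0.53, and with total counts only stood at -0.17 and -0.15, not called.

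The autosomal parent genes varied in their change. Over the main contigs of 73 such genes, the change ran from -0.83 to 1.18 in wt/wt with a median of 0.43, and 37 were higher, 1 lower and 35 not called. That is 50.7% higher and 1.37% lower, beside 23.8% and 16.5% of all contigs. The contig that fell in wt/wt was Rpl4, a large subunit protein, at 209, 211 and 229 CPM in wt/wt RS and 127, 122 and 117 CPM in wt/wt ES. It fell by 0.83 (SE 0.19, q = 0.00332). In dcat/dcat it stood at -0.27 (q = 0.26), with ES libraries at 137, 160 and 223 CPM, and the stages overlapped there. With total counts only it was called in dcat/dcat too (-0.93, q = 0.00121). In dcat/dcat the contig that fell was Rpl35a, by 0.49 (SE 0.17, q = 0.0369), a call lost without RS dcat/dcat replicate 2 or any 1 of the dcat/dcat ES libraries (q = 0.0512 to 0.155).

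The median of the parents resembled that of other short transcripts. For the 37 main contigs of at most 851 bases the median change in wt/wt was 0.46, and for 831 other protein-coding contigs of that range of length it was 0.41. Above 851 bases the 36 main contigs had a median of 0.41, and 7492 other protein-coding contigs had -0.38. In dcat/dcat the values were 0.49 and 0.38 for the short and 0.39 and -0.32 for the long contigs. Across the 73 main contigs length and change were hardly related (Spearman's rho -0.04 in wt/wt), as a description over genes that share libraries. Annotated lengths are not read lengths.

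Contigs other than the main one also tended upward. In 55 genes with more than 1 contig, the main contig held a median of 91.1% of the gene's reads. The other 77 contigs of autosomal parents had a median change of 0.72 in wt/wt, with 24 higher and 1 lower. For dcat/dcat the median was 0.88, with 32 higher and 0 lower. Over all contigs the wt/wt shares were 23.8% higher and 16.5% lower, and the dcat/dcat shares 24.0% and 16.9%. Some of the 77 had enough reads in ES only or in RS only, which favours a call toward that stage. Of all 12 ES-only members, X-linked parents included, 10 were called higher for dcat/dcat and 5 for wt/wt. Of the 17 RS-only members 0 were called higher. The counts and medians of the 77 are therefore a description with no test. No gene had contigs called in opposite directions (0 genes in each genotype). Retained-intron members, 16 tested, had 6 higher and 1 lower in wt/wt with a median of 1.05, against 128 higher of 495 retained-intron contigs over all genes and a median of -0.03. The one that fell was a contig of Rps13, a small subunit gene, with 72, 49 and 88 reads in wt/wt RS and 10, 18 and 6 in wt/wt ES (-1.11, q = 0.00884). The summed reads of Rps13 rose by 0.39 in the same comparison (q = 0.0438). Without ES wt/wt replicate 1 the contig's call was lost (q = 0.0744). A processed-transcript contig of Rps27l, which passed the filter only through RS, stood at -1.81 in wt/wt and at no more than 14.4 CPM in any library. A second Rpl22l1 contig fell in both genotypes, by 0.78 (q = 0.0124) and 0.72 (q = 0.0186), with calls lost without ES wt/wt replicate 1 or 2 (q = 0.111 and 0.0527) and without ES dcat/dcat replicate 1 or 3 (q = 0.0548 and 0.0581).

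The 10 pseudogene copies were listed with low to moderate counts, and 9 were tested. Rpl36-ps12 rose in wt/wt by 1.35 (SE 0.31, q = 0.00324) and Rps13-ps1 by 0.62 (SE 0.21, q = 0.0305), while none of the 9 passed in dcat/dcat. Rpl9-ps6, Rps18-ps5, Rps18-ps6, Rps2-ps10, Rps6-ps4 and Rpl3-ps1 ran from -1.53 to 0.89 in wt/wt and did not pass, and Rps3a3 had no reads there. Rpl10-ps3, on chromosome 9, matched Rpl10 without a difference over 740 aligned bases, so that reads of these 2 cannot be told apart by sequence there. It had 2 reads in wt/wt RS and 25 in wt/wt ES (ratio 36.4, 95% exact interval 9.08 to 317), and 6 and 30 in dcat/dcat, and failed the filter on low counts. The retrogenes Rpl35rt and Rps27rt rose in both genotypes, by 1.24 (q = 0.0111) and 1.29 (q = 0.00872) for Rpl35rt, and by 0.49 (q = 0.0398) and 0.50 (q = 0.0381) for Rps27rt. Both calls of Rps27rt were lost in several leave-one-out fits, with q up to 0.136, and with total counts only it stood at -0.22 and -0.18. Rpl35rt was 99.6% identical to Rpl35, so its reads are uncertain too.

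The stage changes in wt/wt and dcat/dcat come from separate libraries and were close. Over the 178 tested members Pearson's r was 0.86 and Spearman's rho 0.88, as a description over contigs that share libraries, and over the 73 main contigs they were 0.93 and 0.95. Of the members called higher, 59 were called in both genotypes, which is 86.8% of the wt/wt list and 81.9% of the dcat/dcat list. Over all contigs these shares were 91.3% and 90.3%, and Pearson's r was 0.90 and Spearman's rho 0.86. The 3 contigs called lower in both were Rpl10l and 2 contigs of Rpl22l1, and 0 members were called in opposite directions.

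**Figure D5:**
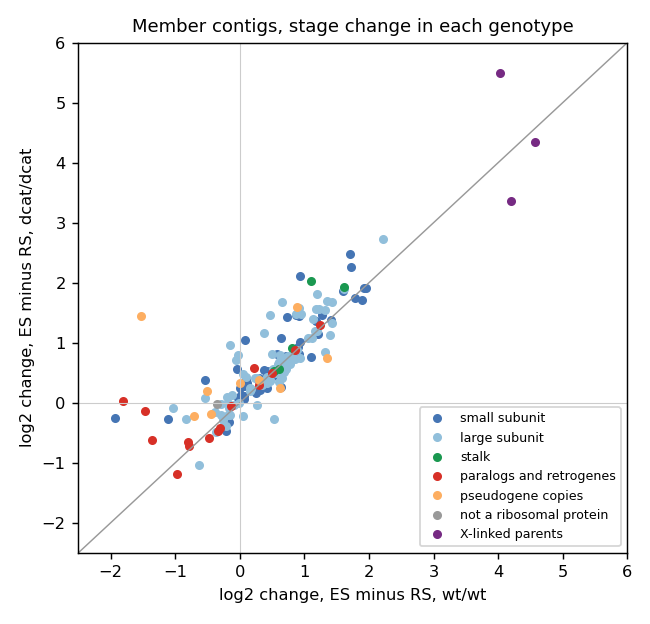
log2 change from RS to ES of the 178 tested member contigs in wt/wt (horizontal) and dcat/dcat (vertical), coloured by class, with the line of equal change. Most contigs lie near the line (Pearson's r 0.86), the X-linked parents at the upper right and the paralogs Rpl10l and Rpl22l1 at the lower left.

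The comparison of genotypes asked whether the loss of TENT5C activity changed these mRNAs. No member was called between dcat/dcat and wt/wt (0 of 178 in each) at either stage or in the interaction of stage and genotype, with edgeR or with DESeq2's Wald test. Under the other alternatives only Rps3a3 in RS met the threshold, and it is described below with no test. Over all contigs the share called was 0.0% in RS, 0.0% in ES and 0.0% for the interaction. At an unadjusted p under 0.05, 1 member passed in RS, 2 in ES and 0 in the interaction, against 0.828%, 3.01% and 1.44% of all contigs. The median log2 difference of the members was -0.01 in RS, 0.06 in ES and 0.05 in the interaction. Without ES wt/wt replicate 2 the ES median was 0.20. For the main contigs with the most reads the groups were close: Rps20 was at 1115 ± 161.6 CPM in wt/wt RS and 1157 ± 149.1 CPM in dcat/dcat RS, and at 2530 ± 437.4 and 2576 ± 137.9 CPM in ES. A difference that does not pass does not show that the genotypes are alike.

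The member with the smallest p in RS was the processed pseudogene Rps3a3 on chromosome 13, which was 98.9% identical to Rps3a1. It had 0 reads in all 6 wt/wt libraries, and 0, 11 and 17 reads in dcat/dcat RS and 0, 10 and 7 in dcat/dcat ES. Only the dcat/dcat libraries numbered 2 and 3 held reads. Against a floor of 3 reads over the wt/wt group, this was at least 11.97-fold higher in RS and at least 5.10-fold higher in ES, and neither passed edgeR's quasi-likelihood test (q = 1 in both). Rps3a3 passed the filter on low counts only through dcat/dcat RS, so its genotype differences are a description and no call is read from them. In RS it met the threshold with the replicate number as a block and without all 4 libraries numbered 1. The latter fit was added after seeing the data and leaves out the dcat/dcat libraries in which Rps3a3 had 0 reads. In ES the smallest p was that of Rpl4, which stood 0.51 higher in dcat/dcat (SE 0.20, q = 1 in edgeR's test), and the groups did not overlap. The Rpl4 interaction was 0.56 (SE 0.27, q = 1 in edgeR's test). In RS the next smallest p belonged to the retained-intron contig of Rps13 (-0.47) and to Rps4x (-1.44), both with q = 1 in edgeR's test.

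Genes that work with the ribosome were described beside the members. Of 22 elongation factor contigs of 8 genes, 10 were higher and 0 lower in ES in wt/wt, with a median of 0.25, and 10 were higher and 1 lower in dcat/dcat, with a median of 0.19. Eef1g, a subunit of the complex that recharges the tRNA-carrying elongation factor, rose from 333 to 884 CPM (1.41, q = 0.000514), and a contig of Eef1d, another subunit, by 2.83 (q = 0.000648). Of 38 ribosome biogenesis contigs of 29 genes, 1 was higher and 12 lower in wt/wt, with a median of -0.72, and 1 was higher and 10 lower in dcat/dcat, with a median of -0.54. The nucleolar chaperone Npm1 fell by 0.85 (q = 0.000763), the stalk assembly factor Mrto4 by 1.19 (q = 0.00109) and the snoRNP protein Nop10 by 0.85 (q = 0.00195). The contig that rose was one of Nhp2, another snoRNP protein (1.44, q = 0.00137). Of 26 contigs of 12 genes for nascent chain, ribosome dormancy and rescue factors, 12 were higher and 1 lower in wt/wt, with a median of 1.02, and 13 were higher and 1 lower in dcat/dcat, with a median of 1.08. Tpt1, an abundant mRNA translated like those of ribosomal proteins, rose from 592 to 2069 CPM (1.81, q = 3.18e-06). Habp4, a relative of the ribosome-binding protein Serbp1, rose from 98.1 to 630 CPM (2.67, q = 3.9e-06), and the rescue factor Hbs1l rose by 1.29 (q = 0.000954). With 23.8% of all contigs called higher and 16.5% lower in wt/wt, these counts are descriptions of lists and not tests of them.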

How the data were processed

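Poly(A) RNA of sorted spermatids was read by nanopore direct RNA sequencing. The authors called bases with Guppy, aligned reads with minimap2 to GENCODE vM17 transcripts of GRCm38, kept reads whose tail passed Nanopolish's quality call, and deposited raw read counts per contig for the 12 libraries. The deposited DESeq2 tables of the authors hold log2 fold changes, adjusted p-values and calls, which were not used, and gene symbols, which were joined by contig. Assignment among overlapping or near-identical transcripts, and the tail filter, can move counts and cannot be undone. A floor of 3 counts per library stood at 1.77 to 10.6 CPM.

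The test of the counts was the quasi-likelihood test of edgeR 4.0.16 under R 4.3.3 (TMM scaling, 1 mean per group, all libraries, a minimum of 10 reads in 2 or more libraries of any group, q at or under 0.05, not robust). The SE is the size of the change divided by the square root of F. There were 5 comparisons. DESeq2 1.42.0, other scalings and filters, gene sums, a replicate block and fits without single libraries were alternatives, and the fit without the 4 libraries numbered 1 was added after seeing the data. The edgeR fit was tested on simulated counts for the stage comparison in wt/wt, with no shift in library composition built in. Same-numbered libraries deviated together for dcat/dcat stage changes (correlations of deviations 0.23 to 0.48) and RS genotypes (0.35 to 0.66). In the others they did not all do so (1 correlation of -0.07 in wt/wt and 1 of 0.02 in ES). The main fit and the permutation test held no pairing, and the replicate block and the sign flips were the paired alternatives. The methods isolate the cell types from the same mice without tying the numbers to them. Positions and transcript types came from GENCODE vM21, which held all 183 members.

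Named contigs were both genes of each paralog pair, X-linked genes, the 5 most read contigs, stalk genes and Rpsa, pseudogene copies, and per comparison up to 6 risen and 6 fallen with the smallest q and no overlap, or with no call the 3 with the smallest p. Rpl35rt, and Rpl10-ps3's ratio, were named after their values were seen. The main contig of a gene is that with the most reads. Members and lists were chosen with earlier results of these data known.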

Additional observations from a re-analysis of the deposited data

How the results depend on the processing

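Each comparison was refitted under the alternatives. For the 5 member counts, DESeq2's size factors, DESeq2's Wald test, no filter, only the groups compared and protein-coding transcripts only left each total within 1.5 times, and the member medians within the spread between libraries. Total counts only gave 11 higher and 46 lower in wt/wt (median -0.19) and 16 higher and 41 lower in dcat/dcat (median -0.13). It turned the stage change of Rpl7 to -0.32 in wt/wt and -0.31 in dcat/dcat, of Rpl7l1 to -0.42 and -0.37, of Rplp0 to -0.11 and -0.11, of Rplp2 to -0.18 and -0.15, of Rps27 to -0.39 and -0.35, of Rps27rt to -0.22 and -0.18, of Rps29 to -0.17 and -0.15, of Rpsa to -0.0719 in wt/wt, and of the Rps27l processed transcript to -0.63 in dcat/dcat. It also gave calls of lower levels to Rpl39l and Rpl35a in wt/wt, to Rpl4 and the retained-intron contig of Rps13 in dcat/dcat, and to Rpl36al, Rpl3 and Rps27l in both genotypes. With at least 10 reads in every library, which left fewer contigs, 21 members were higher and 18 lower in wt/wt (39 called, median 0.19), and 29 higher and 15 lower in dcat/dcat (44 called, median 0.17). With counts summed by gene, 3 genes were lower in wt/wt and 2 in dcat/dcat; Rpl3 stood at 0.22 in dcat/dcat, Rps13 at 0.39 in wt/wt, 0.37 in dcat/dcat, 0.0184 between genotypes in RS and -0.0246 in the interaction, and Rps27l at -0.43 in dcat/dcat, -0.0372 between genotypes in ES and -0.00154 in the interaction. With the replicate block, 11 members were lower in wt/wt and 8 in dcat/dcat. Rps3a3, described with no test, met the threshold between genotypes in RS. Rps27l in both genotypes, Rpl36al in dcat/dcat, Rpl35a in wt/wt (-0.38) and Rpl7 in wt/wt (0.39) gained a call. Without all 4 libraries numbered 1 (added after seeing the data) Rps3a3 again met the threshold between genotypes in RS, and the Rps27l processed transcript stood at -0.0879 in dcat/dcat. Outside the 10 most abundant contigs the ES shares were 5.51% in wt/wt and 5.62% in dcat/dcat.

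Leaving out 1 library at a time gave 47 to 78 called members in wt/wt (41 to 73 higher, 4 to 7 lower) and 51 to 82 in dcat/dcat (47 to 78 higher, 1 to 9 lower). The median in ES between genotypes ran from -0.0191 to 0.202. The Rpl7l1/Rpl7 ratio difference ran from -0.200 to 0.0910 and that of Rps27rt/Rps27 from 0.0882 to 0.267, which passed without ES wt/wt replicate 3 (exact permutation q = 0.035). The Rpl22l1/Rpl22 and Rps27l/Rps27 differences kept their sign and passed in all such fits, and those of the 3 X-linked pairs kept their sign. In the replicate block for ratios, sign flips over same-numbered pairs changed no call. The adjustment behind these calls on ratios also counted the X-linked pairs, so the calls depend on them. Among named contigs, sign changes were seen for Rpl3 in dcat/dcat (-0.357 to 0.0127), Rpl3-ps1 (-6.16 to 0.0291 in wt/wt, -0.90 to 0.36 in dcat/dcat) and the Rps27l processed transcript in dcat/dcat (-0.23 to 0.36). Contigs with few reads, such as the X-linked parents in RS, are limited by depth, and counts near the floor have no order.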

Other observations

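A few contigs carry a ribosomal protein name in the GENCODE vM21 annotation but no deposited symbol, so they stand outside the members (5 contigs). Besides Rps4l, Rps26-ps1 had 472 reads over all libraries and stood at 0.04 in wt/wt (q = 0.939) and -0.06 in dcat/dcat (q = 0.913) from RS to ES. The 2 contigs of the retrogene Rpl37rt had 210 and 23 reads, and the first stood at 0.75 (q = 0.249) and 0.74 (q = 0.277). A second contig of Rps2-ps10 had 904 reads and averaged 84.5 CPM (SD 49.7, n = 3) in wt/wt ES libraries against 185.6 CPM (SD 80.4, n = 3) in dcat/dcat ones, a difference of 1.07 on the log2 scale that did not pass (SE 0.42, q = 1 in edgeR's quasi-likelihood test).

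Rps19bp1, whose symbol met the rule without being a ribosomal protein gene, had 95 reads in all and stood at -0.36 in wt/wt (q = 0.719) and -0.02 in dcat/dcat (q = 0.981).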
